A study of Mus musculus with 18 samples.

Results

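The Hippo pathway core genes described here are Mob1a, Mob1b, Lats1, Lats2, Stk3, Stk4, Sav1, Nf2, Yap1 and Wwtr1. They are 10 of the 24062 gene symbols in the count table, found by symbol, and all 10 passed the filter on low counts in each of the 3 tissues. They were chosen by the liver counts of Mob1a, which were known to be much lower in induced mice, together with the pathway roles of the other 9, so the liver values of CCNE-TA against TA are a description: calls there are only counted beside the share of all genes called, and support nothing. RNA came from whole liver, kidney and lung of C57BL/6 mice. CCNE-TA mice carry a tetracycline-inducible Ccne1 transgene and the rtTA activator, and TA control mice carry rtTA without the Ccne1 transgene. Doxycycline was given to both genotypes from weaning at 3 weeks until death at 4 months, so the controls share the activator and the drug. The promoter that drives rtTA is not given in the sources used here. There were 3 libraries for every tissue and genotype, 18 in 6 groups, and nothing in the labels says that the libraries of a group came from separate mice, so p-values measure the spread between these libraries.

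The Hippo pathway is a kinase cascade that limits the growth of organs. The kinases MST1 (Stk4) and MST2 (Stk3), bound to the scaffold Salvador (Sav1), phosphorylate the kinases LATS1 and LATS2 and their adaptors MOB1A and MOB1B, and LATS in turn phosphorylates the coactivators YAP (Yap1) and TAZ (Wwtr1), which keeps them out of the nucleus. NF2, or Merlin, recruits LATS to the membrane. In mouse liver, loss of the upstream kinases, of NF2 or of both MOB1 adaptors is known to free YAP and to enlarge the organ. These measurements are of RNA and do not report phosphorylation or the place of YAP and TAZ in the cell.

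Mob1a and Mob1b are near-identical in the protein they encode, so the nucleotide differences that let short reads tell them apart are shown first. Mob1a lies on chromosome 6 at 83326016 to 83343776 and Mob1b on chromosome 5 at 88720855 to 88764220, both on the plus strand of mm10 in GENCODE M21. Their coding regions of 651 and 666 bases aligned over 651 bases with 15 gap bases, and 519 bases were identical, 79.7% of the aligned bases. Of the 132 differing bases, 117 were at the last position of a codon. The stretch of 120 bases around the longest identical run (20 bases) reads as follows in the longest protein-coding transcript, bases 269 to 388 of the Mob1a coding region and bases 284 to 403 of that of Mob1b, with the 17 bases that differ in capitals.
Mob1a: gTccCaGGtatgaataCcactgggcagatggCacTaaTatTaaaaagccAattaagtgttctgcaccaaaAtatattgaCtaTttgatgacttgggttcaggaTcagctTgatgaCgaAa
Mob1b: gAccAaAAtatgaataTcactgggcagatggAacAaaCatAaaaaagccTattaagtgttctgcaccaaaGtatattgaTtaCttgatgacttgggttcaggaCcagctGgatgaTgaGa
No run of 50 bases of the Mob1a transcript occurred in another gene, so no read of that length or longer matches both paralogues exactly. The handling of reads with several alignments is not given in the sources used here.

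The sequences before the starts of the 2 MOB1 genes are shown because both transcripts were low in CCNE-TA liver. They come from RefSeq on GRCm38.p6 and end before the annotated start. They were searched for GGAATG, a motif bound by the TEAD factors through which YAP and TAZ act, on both strands, and a match is in capitals.
Mob1a, chr6:83325789-83326015, plus strand: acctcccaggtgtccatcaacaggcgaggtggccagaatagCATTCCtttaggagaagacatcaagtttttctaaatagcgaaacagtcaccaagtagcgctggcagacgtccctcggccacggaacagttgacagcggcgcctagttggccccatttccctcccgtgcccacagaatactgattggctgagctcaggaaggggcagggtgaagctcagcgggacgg
Mob1b, chr5:88720621-88720854, plus strand: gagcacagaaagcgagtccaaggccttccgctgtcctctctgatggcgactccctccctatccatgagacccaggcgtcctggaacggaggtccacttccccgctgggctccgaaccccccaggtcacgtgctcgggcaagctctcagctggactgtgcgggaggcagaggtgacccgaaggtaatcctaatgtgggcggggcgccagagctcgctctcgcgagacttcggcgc
The Mob1a stretch held the motif once, on the other strand, and the Mob1b stretch did not hold these letters. Over windows of 300 bases (250 before and 50 after the start), the motif was in 14.7% of 32851 windows of all genes and in a window of Mob1a, Lats2, Sav1, Wwtr1 and Yap1 among the 9 core genes with a window. Lats2, Nf2 and Wwtr1 have more than a single window, and a Lats2 window held no match. The genes with a match and the share of windows are thus unlike measures. Other motifs were searched in the same windows. CACGTG was in a window of Lats2, Mob1b, Stk4 and Yap1, and in 7.2% of all windows. GGGCGG was in a window of each of these core genes except Mob1a, and in 35.7% of all windows. E2F motifs (2.3% of all windows) and TGACGTCA (1.8%) were in no window of a core gene. A match is a description of the letters and not a site of binding.

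The reads counted per library ranged from 26214869 to 61954486 in liver, from 20352770 to 43202066 in kidney and from 41597623 to 155323865 in lung. Ccne1, the induced gene, stood at 210 to 353 CPM (the gene's share of a library's counts as edgeR's cpm function gives it, with TMM factors within a tissue) in CCNE-TA liver against 2.05 to 2.82 CPM in TA liver, at 485 to 897 against 1.57 to 2.58 CPM in kidney, and at 65.7 to 125 against 1.04 to 6.02 CPM in lung. The tissue labels were checked on 5 markers each: the hepatocyte markers summed to 89556 to 162388 CPM in the liver libraries, the kidney markers to 18938 to 73404 CPM in kidney and the lung markers to 48169 to 125482 CPM in lung. Some libraries stood apart within their group. In liver, TA 1 had 13.8 CPM of the kidney transcript Kap and the CCNE-TA libraries had 13.1 to 25.6 CPM, while TA 2 and TA 3 had no read. Lung CCNE-TA 3 had 13.7 CPM of Kap, against 0 to 0.0921 CPM in the other lungs. The 5 pancreas markers summed to 1.39 to 155 CPM in the TA livers and to 0.939 to 1.27 CPM in the CCNE-TA livers. In lung, the count profile of CCNE-TA 1 differed from the other CCNE-TA libraries with a chi-square per degree of freedom of 587 and 732, against 94.1 between those 2. The profile of lung TA 3 differed from the other TA libraries by 244 and 289, against 51.9. Fewer cells of a type and less RNA per cell cannot be told apart in whole tissue.

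In liver, the MOB1 adaptors stood lowest against the controls among the core genes. MOB1 binds LATS and NDR kinases and is needed for their full activity. Mob1a was at 14.7, 15.2 and 13.9 CPM in TA 1, 2 and 3 and at 0.838, 1.13 and 0.736 CPM in CCNE-TA 1, 2 and 3, from 490 to 926 reads per TA library and 24 to 48 per CCNE-TA library. The groups do not overlap, and the values lie close together within each group. The mean was 14.6 ± 0.647 CPM in TA and 0.900 ± 0.202 CPM in CCNE-TA (SD, n = 3 per group), 6.15% of the TA mean, with a log2 fold change of -4.01 ± 0.26 (SE). This was the 19th lowest fold change of 13811 tested genes.

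Mob1b was at 19.2, 23.1 and 16.5 CPM in the TA livers and at 3.58, 5.11 and 2.98 CPM in the CCNE-TA livers. Every CCNE-TA library was below every TA library. The mean was 19.6 ± 3.34 CPM in TA and 3.89 ± 1.10 CPM in CCNE-TA (SD, n = 3 per group). The log2 fold change was -2.33 ± 0.26 (SE). CCNE-TA 2 was the highest of the CCNE-TA livers for both paralogues, as it was for Lats1, Lats2, Stk3 and Wwtr1.

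Values of the LATS kinases and of the MST kinases above them were also lower in CCNE-TA liver, by less. Lats2 (chromosome 14, 57689662 to 57758388, minus strand) was at 19.0, 20.8 and 16.1 CPM in the TA livers and at 8.76, 11.8 and 8.47 CPM in the CCNE-TA livers, a log2 fold change of -0.94 ± 0.21 (SE). Its groups do not overlap. In the annotation, 42.4% of the Lats2 exon bases are shared with Gm49361 on the same strand, a model that the count table does not list and that holds 56.5% of the runs of 50 bases in the Lats2 transcript, and how reads there were counted is not given in the sources used here. Lats1 (chromosome 10, 7681214 to 7716460, plus strand) stood at 35.1 ± 1.10 CPM in TA and 27.7 ± 3.20 CPM in CCNE-TA (SD, n = 3 per group), and its log2 fold change was -0.34 ± 0.16 (SE). Stk4 (chromosome 2, 164070322 to 164155524, plus strand) stood at 23.9 ± 0.827 against 16.8 ± 1.55 CPM, with a log2 fold change of -0.51 ± 0.16 (SE). Stk3 (chromosome 15, 34875496 to 35178921, minus strand), the less abundant MST kinase gene in liver, stood at 7.39 ± 1.13 against 5.36 ± 0.645 CPM, with a log2 fold change of -0.46 ± 0.23 (SE). For each of these 4 kinase genes every CCNE-TA library was below every TA library, as for 24.7% of all tested genes. Lats1 (edgeR adjusted p = 0.144) and Stk3 (edgeR adjusted p = 0.164) did not pass the threshold given below.

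The scaffold gene Sav1 (chromosome 12, 69965012 to 69987002, minus strand) was the only core gene with every CCNE-TA liver above every TA liver. It stood at 12.1, 12.0 and 12.9 CPM in TA and at 15.3, 13.999 and 17.5 CPM in CCNE-TA, with a log2 fold change of 0.34 ± 0.17 (SE). In the annotation, 25.4% of its exon bases overlap Atl1 on the opposite strand, and the library kit does not mark strand, so reads of the 2 genes cannot be told apart there. Of the runs of 50 bases in its transcript, 52.0% also lie in Atl1. Nf2 (chromosome 11, 4765845 to 4849536, minus strand) was at 36.1, 31.7 and 33.7 CPM in TA and at 20.5, 20.5 and 20.2 CPM in CCNE-TA. The 3 CCNE-TA livers were nearly equal and all below the TA livers, with a log2 fold change of -0.73 ± 0.15 (SE).

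The coactivator genes had unlike fold changes in liver, and the difference between them was not tested. Yap1 (chromosome 9, 7931999 to 8004596, minus strand) was at 68.0, 79.4 and 80.9 CPM in TA and at 53.6, 51.7 and 46.9 CPM in CCNE-TA, with a log2 fold change of -0.59 ± 0.17 (SE) and no overlap. Wwtr1, which encodes TAZ (chromosome 3, 57455649 to 57575910, minus strand), stood at 16.5 ± 1.53 CPM in TA and 16.9 ± 3.13 CPM in CCNE-TA (SD, n = 3 per group). Its groups overlap, and its log2 fold change was 0.04 ± 0.20 (SE).

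Counted by the edgeR threshold (Benjamini-Hochberg adjusted p under 0.05 over all tested genes), 6 of the 10 core genes were lower in CCNE-TA liver (Mob1a, Mob1b, Lats2, Stk4, Nf2 and Yap1) and 0 were higher, where 14.8% of all tested genes were lower and 13.7% higher, 28.5% in all. Every CCNE-TA library was below every TA library for 8 core genes and for 24.7% of all tested genes, and above for 1 core gene and 23.2% of all. The median log2 fold change was -0.55 over the core genes and 0.02 over all tested genes. Because the liver contrast served to choose the genes, nothing is read from these counts. The count was 2 without CCNE-TA 1 (Mob1a and Mob1b), 3 without TA 2, 2 when TA 2 and TA 3 had a term of their own, and 1 with TA 1 as the sole control (Mob1a). Against TA 1 as the sole control, which leaves fewer libraries, Mob1a was at -4.04, Mob1b at -2.31, Lats2 at -0.98, Nf2 at -0.84, Stk4 at -0.57 and Yap1 at -0.44. With the term for the other controls, Lats2 was at -0.97, Nf2 at -0.82, Stk4 at -0.55 and Yap1 at -0.42. With upper quartile in place of TMM scaling the median of all genes moved from 0.02 to 0.21, and the split of all genes moved from 1897 higher and 2045 lower to 2610 higher and 1367 lower; the core count was then 4 and Mob1a stood at -3.83.

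**Figure D1:**
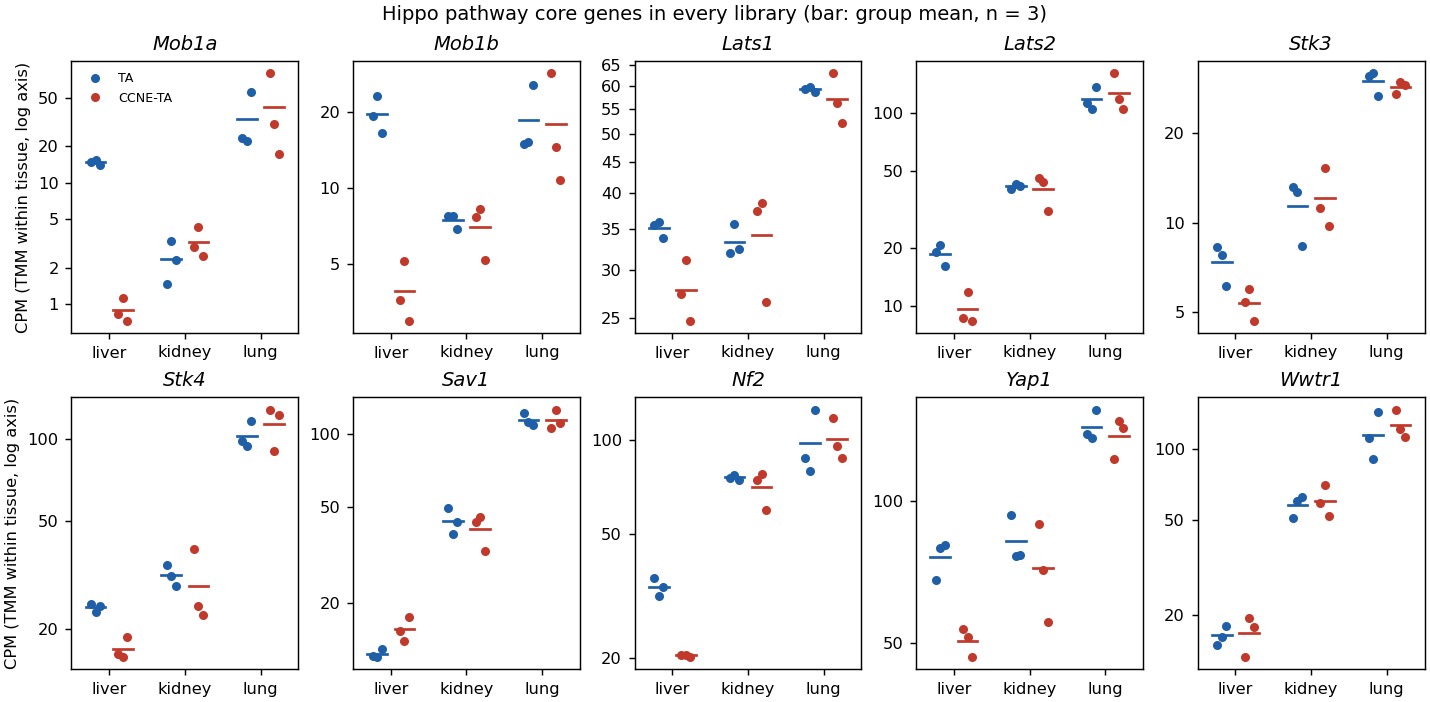
Level of each core gene in every library, in CPM scaled within a tissue on a log axis for the 3 tissues; TA libraries are blue, CCNE-TA libraries red, and bars are group means (n = 3). In liver the red points of Mob1a (0.736 to 1.13 CPM) lie far below the blue ones (13.9 to 15.2 CPM), while in kidney and lung the 2 genotypes overlap for each of the 10 genes.

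Markers of other cells moved in the same liver libraries. All 5 bile duct markers were higher in CCNE-TA liver, with a summed level of 229 to 335 CPM against 46.4 to 50.3 CPM in TA, and 4 of 5 endothelial markers were lower, with 52.8 to 74.4 against 115 to 144 CPM. Of 5 macrophage markers 2 were lower (146 to 278 against 208 to 406 CPM), and 0 of 5 hepatocyte markers passed the threshold (89556 to 162388 against 94804 to 131069 CPM). Called higher were 1 of 5 stellate cell and fibroblast markers, 1 of 5 lymphocyte markers and 1 of 5 lung markers, with 0 lower. Over all tested genes in liver 13.7% were called higher and 14.8% lower. No marker of these lists was at 0 in a whole group, and their part in the values of the core genes was not tested.

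Transcript length moved with the liver difference over all genes. The median log2 fold change was 0.67 in the tenth of genes with the shortest transcripts and -0.43 in the tenth with the longest. The core genes have transcripts of 2524 nt (Sav1) to 8967 nt (Mob1b), and the median of the length class was -0.24 for Mob1a (4412 nt) and -0.43 for Mob1b. With length and GC content of the transcript as offsets, Mob1a was at -3.72 ± 0.23 and Mob1b at -1.93 ± 0.22 (log2 fold change ± SE). Lats2 was then at -0.63, Nf2 at -0.53, Yap1 at -0.32, Stk4 at -0.10 and Lats1 at 0.13, and 3 of the 10 passed the edgeR threshold (Mob1a, Mob1b and Nf2).

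**Figure D2:**
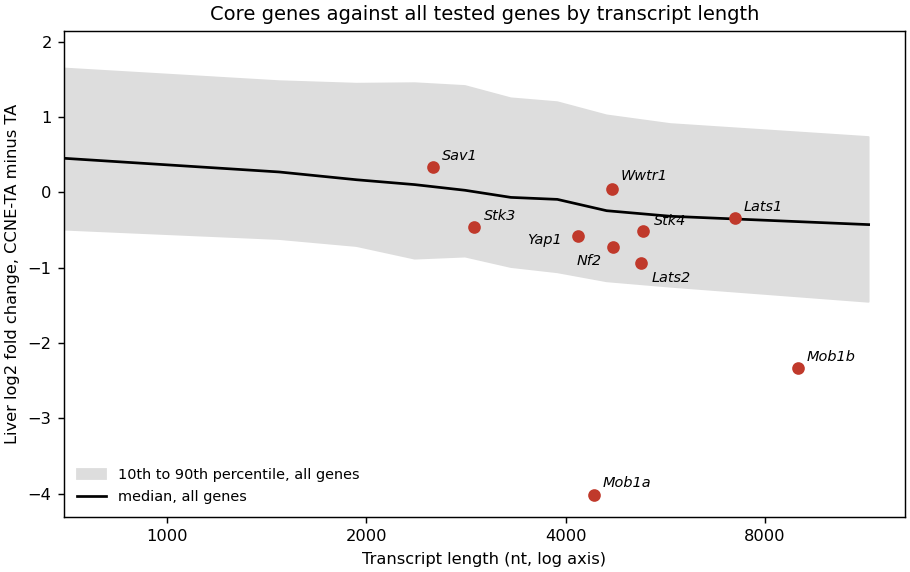
Log2 fold change of CCNE-TA against TA in liver (vertical axis) against transcript length in nt on a log axis; red points are the core genes, the black line is the median of all tested genes in 10 length classes and the grey band runs from the 10th to the 90th percentile. Mob1a (-4.01) and Mob1b (-2.33) lie below the band, and the other 8 core genes lie inside it.

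In kidney, where Ccne1 was induced as well, none of the core genes differed between the genotypes beyond the spread between libraries. Mob1a was at 1.47, 3.33 and 2.33 CPM in TA and at 2.97, 4.31 and 2.498 CPM in CCNE-TA, with a log2 fold change of 0.45 ± 0.40 (SE) and a 95% confidence interval of -0.46 to 1.36. This was the highest of the core genes, and the groups overlap, though CCNE-TA was higher in each of the 3 pairs of libraries of the same number. The labels do not give this pairing. Mob1b was at 7.73, 7.69 and 6.845 CPM in TA and at 7.63, 8.21 and 5.16 CPM in CCNE-TA, a log2 fold change of -0.09 ± 0.26 (SE, interval -0.66 to 0.49). The lowest was Yap1 at -0.19 ± 0.21 (SE), with 93.4, 76.5 and 76.9 CPM in TA and 89.6, 71.6 and 55.5 CPM in CCNE-TA, lower in each of the 3 pairs. With the pairs as a block, edgeR gave 0.48 for Mob1a and -0.21 for Yap1 (adjusted p = 0.945 for both). By edgeR's quasi-likelihood test 0 of 10 core genes passed the threshold (Benjamini-Hochberg adjusted p = 0.999 for each), as did 0.0131% of all tested genes. At an unadjusted p under 0.05 there were 0 core genes and 324 of all tested genes. DESeq2 called 0 core genes, and 26 of 19137 genes in all. No core gene had all CCNE-TA libraries below or all above the TA libraries, against 2.68% and 3.04% of all tested genes.

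In lung the values of Mob1a spread widely within each genotype. Mob1a was at 23.2, 21.8 and 55.3 CPM in TA 1, 2 and 3 and at 78.8, 30.5 and 17.1 CPM in CCNE-TA 1, 2 and 3. Mob1b was at 14.9, 15.1 and 25.5 CPM in TA and at 28.3, 14.5 and 10.8 CPM in CCNE-TA. Both adaptors were highest in CCNE-TA 1 and TA 3, the libraries that stood apart in their whole count profile. Mob1a had a log2 fold change of 0.34 ± 0.63 (SE, interval -1.18 to 1.85), and without those 2 libraries it was 0.08. The log2 fold changes of the other core genes ran from -0.06 (Stk3) to 0.15 (Stk4). By edgeR 0 of 10 passed the threshold (adjusted p = 0.9999), against 0.00594% of all tested genes. At an unadjusted p under 0.05 there were 0 core genes and 614 of all genes. DESeq2 called 0 core genes, and 187 of 17971 genes in all. All groups overlap, where 4.59% of all tested genes had every CCNE-TA library below and 3.30% above.

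The intervals show what size of effect these libraries leave possible. For Lats1, Lats2, Stk4, Sav1, Nf2, Yap1 and Wwtr1 the 95% intervals in kidney lay within -0.67 to 0.47 and those in lung within -0.46 to 0.62 on the log2 scale, while that of Mob1a in lung spanned 3 log2 units. The interval of Mob1b in lung ran from -1.03 to 0.93, and that of Stk3 from -0.51 to 0.68 in kidney and from -0.36 to 0.24 in lung. The kidney effect minus the lung effect was tested in 1 edgeR fit of all 18 libraries. It ran from -0.30 (Stk4) to 0.13 (Stk3) and was 0.09 for Mob1a (interval -1.32 to 1.51). None of the 10 passed the threshold (edgeR adjusted p = 0.99998), against 0.00583% of all tested genes. At an unadjusted p under 0.05 there were 0 core genes and 449 of all genes. DESeq2 called 0 core genes, but it gave an adjusted p for only 2783 genes, 138 of them called. Genes without an adjusted p could not be called. The liver effect minus the kidney effect, given as a description, was -4.47 ± 0.71 for Mob1a and -2.25 ± 0.47 for Mob1b (SE), and minus the lung effect it was -4.37 and -2.30.

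**Figure D3:**
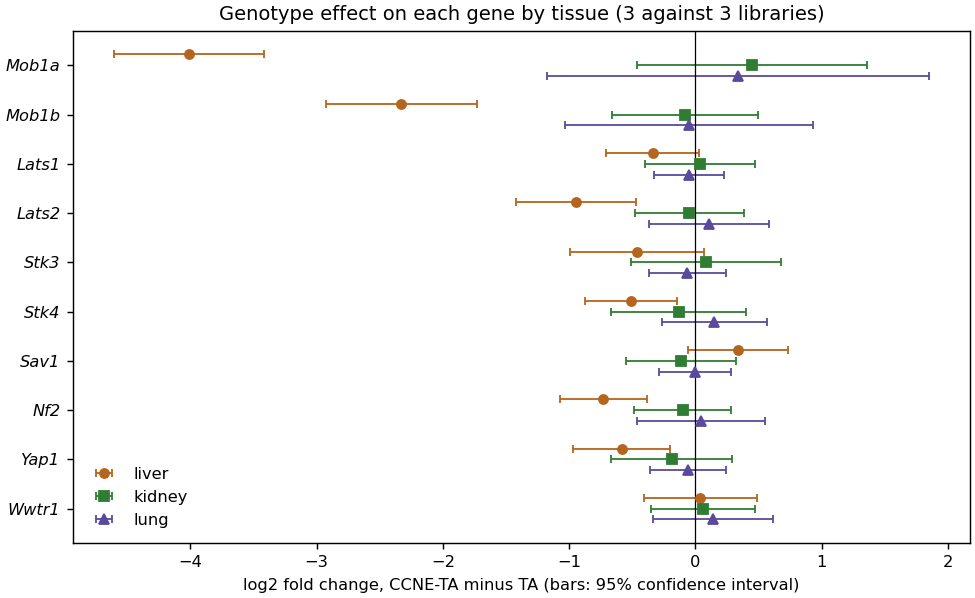
Log2 fold change of CCNE-TA against TA for each core gene in liver (brown circles), kidney (green squares) and lung (purple triangles), with 95% confidence intervals from edgeR (3 against 3 libraries). The liver points of Mob1a (-4.01) and Mob1b (-2.33) stand far left of 0, and all kidney and lung intervals span 0.

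The tissues of the control mice differed in how much of each core gene they held. Levels between genes are given per length of transcript (RPKM, scaled over all 18 libraries). In TA kidney the order was Yap1 (16.6 ± 1.89), Sav1 (14.7 ± 1.80), Nf2 (13.5 ± 0.332), Wwtr1 (10.4 ± 1.14), Lats2 (6.77 ± 0.231), Stk4 (5.06 ± 0.444), Lats1 (3.90 ± 0.254), Stk3 (3.30 ± 0.777), Mob1b (0.698 ± 0.0480) and Mob1a (0.454 ± 0.181 RPKM; SD, n = 3). Yap1, Sav1 and Nf2 overlap with their neighbours in this order, as do Lats1 and Stk3. The MOB1 genes were the 2 lowest in kidney, clear of the rest. In TA liver Yap1 was highest at 31.7 ± 2.57 RPKM, followed by Nf2 at 12.5 ± 0.919 RPKM. Sav1, Lats1 and Stk4 (8.49, 8.45 and 7.95 RPKM) overlap with their neighbours, as do Lats2, Wwtr1 and Mob1a (6.24, 6.08 and 5.76 RPKM) and Stk3 and Mob1b (4.41 and 3.80 RPKM). In TA lung Sav1, whose reads overlap those of Atl1 as given above, led at 31.2 ± 1.94 RPKM and Yap1 followed at 23.5 ± 1.57 RPKM, and Wwtr1, Lats2, Nf2 and Stk4 (16.7 to 13.4 RPKM) overlap as neighbours. Stk3 (7.003 RPKM) stood below them, Lats1 and Mob1a (5.62 and 5.16 RPKM) overlap, and Mob1b was lowest at 1.41 ± 0.445 RPKM.

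**Figure D4:**
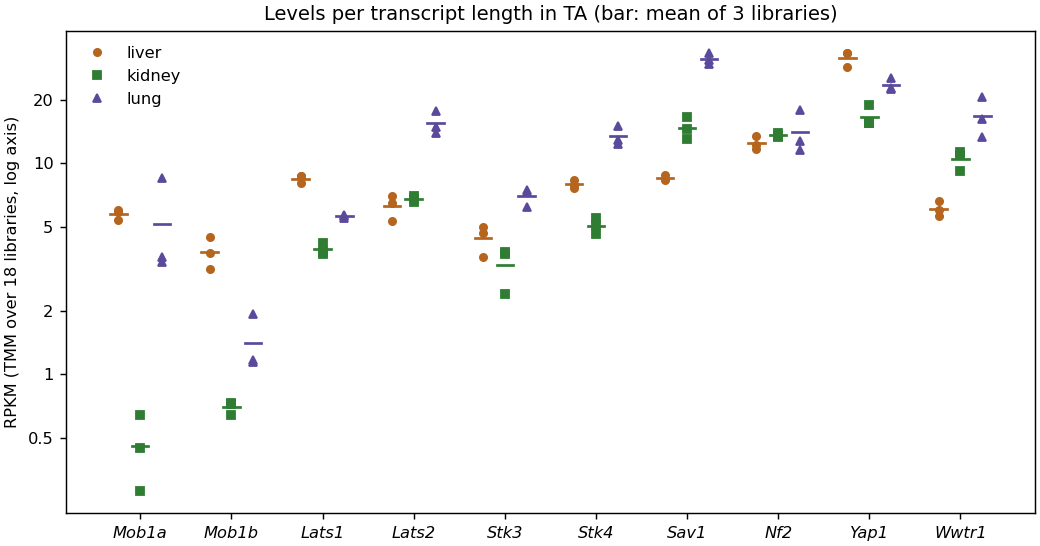
Level of each core gene in the TA libraries per length of transcript, in RPKM on a log axis, in liver (brown circles), kidney (green squares) and lung (purple triangles), with the mean of 3 libraries as a bar. Mob1a and Mob1b are lowest in kidney (means of 0.454 and 0.698 RPKM), and Nf2 lies between 11.6 and 17.9 RPKM in all 9 libraries.

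Between control kidney and control lung, a contrast with no liver library in it, 9 of the 10 core genes were lower in kidney and 0 higher in an edgeR fit of the 9 TA libraries, where 31.3% of all tested genes were lower and 29.3% higher, 60.6% in all. Mob1a differed most, at 0.279, 0.640 and 0.444 RPKM in kidney against 3.60, 3.40 and 8.48 RPKM in lung. The log2 difference was -3.48 ± 0.41 (SE, edgeR adjusted p = 5.85e-05). Its paralogue Mob1b differed by -1.003 ± 0.24 (edgeR adjusted p = 0.00418). Among the kinases, Stk4 differed by -1.40 ± 0.14, Lats2 by -1.19 ± 0.15, Stk3 by -1.08 ± 0.22 and Lats1 by -0.52 ± 0.12. Sav1 differed by -1.08 ± 0.14, Wwtr1 by -0.67 ± 0.17 and Yap1 by -0.49 ± 0.14 (SE, edgeR adjusted p = 0.0131, the highest of the 9). Nf2 differed by -0.05 with an interval of -0.43 to 0.33 (edgeR adjusted p = 0.823). Without lung TA 3, the library that stood apart, Mob1a differed by -2.92 and the same 9 genes passed. Without kidney TA 3, Yap1 no longer passed the threshold and 8 genes did.

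Control liver was set beside the other tissues for the 9 core genes other than Mob1a. Against kidney, Mob1b (log2 difference 2.44 ± 0.25), Lats1 (1.11 ± 0.12), Yap1 (0.93 ± 0.15) and Stk4 (0.65 ± 0.14) were higher in liver by edgeR, and Sav1 (-0.79 ± 0.14) and Wwtr1 (-0.78 ± 0.18) were lower (SE); 64.9% of all tested genes passed the threshold, 30.5% as higher and 34.5% as lower. Against lung, Mob1b (1.44 ± 0.24), Lats1 (0.59 ± 0.12) and Yap1 (0.43 ± 0.14) were higher in liver, and Sav1 (-1.87 ± 0.14), Wwtr1 (-1.45 ± 0.18), Lats2 (-1.30 ± 0.15), Stk4 (-0.75 ± 0.14) and Stk3 (-0.66 ± 0.22) were lower (SE); 71.5% of all tested genes passed, 34.7% as higher and 36.9% as lower. Yap1 against lung did not pass with DESeq2 (adjusted p = 0.104), with RLE scaling in edgeR (adjusted p = 0.0983), or without liver TA 2, liver TA 3, lung TA 1 or lung TA 2, and Stk3 did not pass without liver TA 3, lung TA 1 or lung TA 2 (edgeR adjusted p of 0.0610 to 0.0775). Mob1a, with no test, was 3.64 above kidney on the log2 scale. Against lung its sign changed with the setting, at 0.17 with all libraries, 0.72 without lung TA 3, -0.04 without lung TA 1, -0.07 without lung TA 2 and -0.27 with upper quartile scaling. Upper quartile scaling moved the median of all genes from -0.13 to -0.43 against kidney and from -0.09 to -0.54 against lung. It moved the split of all genes from 5050 higher and 5713 lower to 3947 and 6942 against kidney, and from 5747 and 6112 to 4079 and 7648 against lung. Under it Yap1 against lung was -0.01, Lats1 no longer passed there, Nf2 did, and Lats2 and Nf2 passed against kidney as lower in liver.

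The balance of the paralogues within a library does not depend on the scaling between libraries. In liver the TA libraries held 0.768, 0.658 and 0.846 Mob1a reads per Mob1b read and the CCNE-TA libraries 0.234, 0.220 and 0.247. Mob1b thus gave more reads than Mob1a in all 6 livers, but its transcript is longer. Per length of transcript the order turned in the TA livers only. The ratio of Mob1a to Mob1b was then 1.56, 1.34 and 1.72 in the TA livers and 0.476, 0.448 and 0.503 in the CCNE-TA livers. This rests on the longest protein-coding transcript, 4412 nt for Mob1a (of 6 transcripts) and 8967 nt for Mob1b (of 4). In kidney the ratio was 0.321 ± 0.123 in TA and 0.466 ± 0.0696 in CCNE-TA, and in lung 1.72 ± 0.393 and 2.16 ± 0.600 (SD, n = 3 per group). A two-sided exact permutation test gave p = 0.2 between the genotypes in kidney and p = 0.4 in lung, and p = 0.1 between TA kidney and TA lung, the smallest that 3 against 3 can give (Benjamini-Hochberg adjusted over these 3 comparisons, 0.3, 0.4 and 0.3). Every TA kidney was below every TA lung. Between kidney libraries of the same number, a pairing that is not established, the ratio was higher in CCNE-TA in 3 of 3 pairs (0.190 and 0.389, 0.433 and 0.525, 0.340 and 0.484). An exact paired permutation test, added after the values were seen, gave p = 0.25, the smallest that 3 pairs can give.

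**Figure D5:**
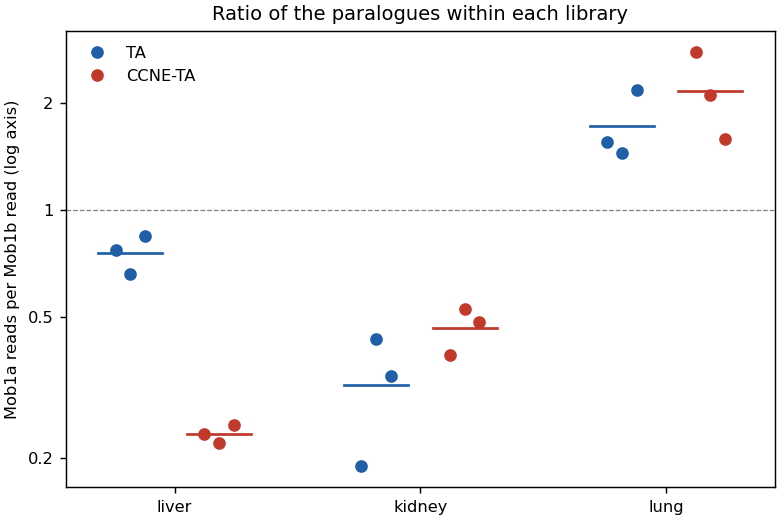
Mob1a reads per Mob1b read in each library on a log axis, TA in blue and CCNE-TA in red for the 3 tissues, and the group mean as a bar (n = 3); the dashed line marks equal reads. The ratio is 0.658 to 0.846 in TA liver and 0.220 to 0.247 in CCNE-TA liver, and lies above 1 in all 6 lungs.

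The other genes of the pathway were read from 4 lists by role, with 66 genes in all. In liver, again as a description, 1 of the 7 other MOB and NDR kinase genes was called lower and 0 higher (median log2 fold change 0.10), beside 14.8% lower and 13.7% higher of all tested genes. The called one was Stk38l, an NDR kinase gene that MOB1 also serves (16.7 ± 3.98 against 8.75 ± 2.22 CPM in TA and CCNE-TA; -0.93 ± 0.26, SE). Among relatives of MOB1, Mob2 was at -0.32 with every CCNE-TA liver below every TA liver, Mob3b at 0.35 with every CCNE-TA liver above, and Mob4 at -0.16 with overlapping groups. Stk38, the other NDR kinase gene, was at 0.52 and its groups overlap.

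Of 22 genes upstream of LATS, 6 were called lower in CCNE-TA liver and 3 higher (median -0.23), beside 14.8% and 13.7% of all tested genes. The 3 higher ones, named after their values were seen, were Wtip at 1.76 ± 0.33, Map4k4 at 1.09 ± 0.24 and Rassf1 at 0.69 ± 0.18 (log2 fold change ± SE). Wwc1, which encodes KIBRA, a partner of NF2, was at 64.8, 45.1 and 66.7 CPM in TA and at 14.1, 13.9 and 19.1 CPM in CCNE-TA, a log2 fold change of -1.91 ± 0.22 (SE). All 3 CCNE-TA livers were below all 3 TA livers. Limd1, whose LIM protein restrains LATS, was at -0.68 ± 0.17 and was called lower. Fat1, an atypical cadherin, was at -0.60, the angiomotin gene Amot at -0.04, Amotl1 at -0.52, Frmd6 at -0.09, the kinase gene Taok1 at -0.33 and Fat4 at -0.51, none of them called.

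Of 16 tested genes for TEAD factors, 14-3-3 proteins and the turnover of YAP, TAZ and LATS, 6 were called lower and 3 higher (median -0.17), with the same 14.8% and 13.7% over all tested genes. Vgll4, which competes with YAP for TEAD, was at 9.82, 16.8 and 9.52 CPM in TA liver and at 1.93, 2.06 and 2.39 CPM in CCNE-TA liver, a log2 fold change of -2.50 ± 0.30 (SE). Itch, a ubiquitin ligase for LATS1, was at -1.08 ± 0.19, and Ywhaz, a 14-3-3 gene, at 0.61 ± 0.17. The other 2 called higher, named after their values were seen, were the kinase gene Csnk1e at 0.90 and the 14-3-3 gene Ywhah at 0.56. Tead1 was at -0.26 and Tead3 at -0.04, with overlapping groups.

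Of 19 tested genes that YAP and TAZ are known to drive, 1 was called higher and 1 lower in liver (median 0.06, against 0.02 over all genes), where 13.7% of all tested genes were called higher and 14.8% lower. Ccn1 (Cyr61 in the table) was at 4.54, 4.30 and 7.39 CPM in TA and at 7.57, 12.7 and 16.7 CPM in CCNE-TA, a log2 fold change of 1.19 ± 0.34 (SE). Crim1 was the one called lower, at -1.03 ± 0.28. Ccn2 (Ctgf in the table), a widely used readout of YAP, was at 9.77, 15.2 and 4.66 CPM in TA and at 9.39, 16.1 and 5.46 CPM in CCNE-TA. Its groups overlap over nearly the same range, and its log2 fold change was 0.06 ± 0.49 (SE). Ankrd1 (0.637 ± 0.390 against 1.33 ± 0.657 CPM; 1.08 ± 0.64, SE), Amotl2 (-0.09), Axl (0.14) and Ajuba (-0.06) also overlap between the genotypes.

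In kidney and in lung, 0 genes of the 4 lists passed the edgeR threshold, where 0.0131% of all tested genes did in kidney and 0.00594% in lung. At an unadjusted p under 0.05 there was 1 gene in kidney, the YAP and TAZ target Nuak2, which is named for that value (-0.82 ± 0.29, SE, edgeR adjusted p = 0.999), and 0 in lung. In kidney, 1 of 7 MOB and NDR genes had every CCNE-TA library above every TA library. Of 22 upstream genes there, 1 lay below in this way and 1 above. In lung, 1 of 20 YAP and TAZ targets lay above. Over all tested genes 2.68% lay below and 3.04% above in kidney, and 4.59% and 3.30% in lung. Wwc1, Vgll4 and Ccn1, which were called in liver, had overlapping groups in both tissues. Wwc1 was at -0.07 in kidney and -0.07 in lung, Vgll4 at 0.05 and 0.14, and Ccn1 at -0.39 and -0.12 (log2 fold changes). Vgll4 in lung was highest in CCNE-TA 1 (30.9 CPM) and TA 3 (26.3 CPM), the same libraries as Mob1a.

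Between control kidney and control lung, edgeR called 12 of the 20 YAP and TAZ target genes lower in kidney and 3 higher (median log2 difference -0.82, against -0.05 over all genes, of which 31.3% were lower and 29.3% higher), and 9 of 17 TEAD, 14-3-3 and turnover genes lower and 0 higher (median -0.56). Of the 22 upstream genes 12 were lower and 3 higher (median -0.61), and of the 7 MOB and NDR genes 2 were lower and 0 higher (median -0.11). Ankrd1 was at -2.78 ± 0.50, Ccn1 at -1.93 ± 0.43, Crim1 at -1.48 ± 0.22 and Tead1 at -1.34 ± 0.27 (SE), all lower in kidney. The 3 targets higher in kidney, named after their values were seen, were Nuak2 at 3.07 ± 0.24, Igfbp3 at 2.14 ± 0.22 and Gadd45a at 1.64 ± 0.46 (SE). Frmd6, a band 4.1 protein gene, was at -2.96 ± 0.23, whereas Amot was higher in kidney at 1.58 ± 0.30 (SE). Ccn2 was at -0.52 ± 0.36 (edgeR adjusted p = 0.232). Of the MOB genes, Mob2 was at -0.56 ± 0.12 (SE, edgeR adjusted p = 0.00277), Mob3a, named after its value was seen, at -1.15 ± 0.16 (SE, edgeR adjusted p = 0.000185), and Mob3b and Mob4 were at 0.00 and 0.01.

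Over the 18 libraries, the genes whose log2 CPM followed Mob1a most closely among 12386 genes were Plekhm1 (Pearson r = 0.978), Nupl1 (0.976), Smad4 (0.974), Dcp2 (0.971) and Pja2 (0.971). The 18 libraries fall in 6 groups of tissue and genotype, so they are not independent, and they differ in depth. The coefficients describe them with no test. Nupl1 was nearest to Mob1a in the size of its range: its mean was 19.5 CPM in TA liver, 3.06 CPM in CCNE-TA liver, 3.12 CPM in TA kidney and 14.8 CPM in TA lung (scaled over 18 libraries), with a liver log2 fold change of -2.65 ± 0.32 (SE). The other 4 had liver log2 fold changes of -0.85 (Plekhm1) to -1.20 (Pja2). Among the core genes, r with Mob1a was 0.82 for Mob1b, 0.81 for Stk4, 0.77 for Stk3, 0.73 for Lats2, 0.66 for Yap1, 0.60 for Nf2, 0.52 for Lats1, 0.42 for Wwtr1 and 0.40 for Sav1, and Mob1b ranked 605th among all genes.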

How the data were processed

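For 18 libraries of total RNA the authors deposited raw read counts per gene symbol, not normalized. Per the submitters' processing notes the tools were TopHat2 2.0.14, Bowtie2 2.2.6 and featureCounts 1.4.6 with the build mm10; the annotation, strand setting and handling of reads with several alignments are not given in the sources used here. Per the labels, libraries were made from 100 to 200 ng of RNA with version 2 of the TruSeq kit, which does not mark strand.

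Genotypes were compared within each tissue, and TA tissues over 9 TA libraries, with edgeR 4.0.16 in R 4.3.3 (filterByExpr, TMM, robust quasi-likelihood F test; Benjamini-Hochberg over all tested genes, threshold 0.05). The SE is the log2 fold change divided by the square root of F. RPKM used the longest protein-coding transcript of GENCODE M21 on mm10; 98.4% of 24062 symbols had a length. Alternatives used DESeq2 1.42.0, limma 3.58.1, other scalings and filters, left-out libraries and, as covariates, the replicate number, the term for liver TA 2 and TA 3, and Xist, since the labels do not give the sex of the mice.

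The members, the gene lists and the tests were chosen with earlier results of these data known. Named genes are the 10 core genes, 25 pathway genes taken by role and the 5 with the highest r with Mob1a (mean log2 CPM of at least 1, prior count 2). Some further pathway genes were named after their values were seen, as said where they appear. No per-sample column was left out. The labels do not say that a replicate number marks a mouse. In kidney, libraries of the same number deviated together (correlations across genes of 0.20, 0.34 and 0.25). In liver these correlations were 0.13, 0.02 and 0.04, and in lung -0.47, -0.08 and -0.56. Libraries of different numbers were not compared. A pairing of the kidney samples is thus read from the data and is not established.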

Additional observations from a re-analysis of the deposited data

How the results depend on the processing

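The count of core genes called in liver (6) was 3 with the length and GC correction, 2 when TA 2 and TA 3 had a term of their own, and 1 with TA 1 as the sole control; leaving out each library in turn gave 2 to 5. It was 4 with Xist as a covariate (Stk4 and Yap1 did not pass). With the replicate number as a block it was 4. In kidney, where libraries of the same number deviated together, the replicate block gave 0 core genes. Over all tested genes in kidney it called 3, against 2 without it. Apart from the genotype contrast in liver, it changed no call of a core gene. Mob1a in liver lay between -4.22 and -3.72, a range from which no stability is read, since the gene was chosen on this contrast. In kidney, in lung and for their difference, 0 core genes were called under all alternatives run. For the difference, DESeq2 gave an adjusted p for only 2783 genes, and the rest could not be called. Signs turned for values that passed no threshold: Lats1 in liver (0.13 with the length and GC correction), Mob1b in lung (0.035 with limma-voom), Yap1 in lung (0.082 without CCNE-TA 1 and TA 3) and Sav1 in lung (0.0024 with DESeq2, 0.00050 with RLE scaling, 0.0011 with no filter, 0.012 with the length and GC correction, 0.019 without CCNE-TA 1 and TA 3, and 0.012 in 1 fit of all libraries). Yap1 in TA liver against TA lung turned to -0.012 with upper quartile scaling.

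Leaving out libraries also turned signs of values near 0, with these lowest and highest values: Wwtr1 in liver -0.083 to 0.19; in kidney Mob1b -0.22 to 0.092, Lats1 -0.063 to 0.19, Lats2 -0.15 to 0.11, Stk3 -0.13 to 0.22, Stk4 -0.43 to 0.011, Sav1 -0.20 to 0.018, Nf2 -0.18 to 0.0052 and Wwtr1 -0.067 to 0.15; in lung Mob1a -0.49 to 0.89, Mob1b -0.55 to 0.23, Lats1 -0.13 to 0.011, Lats2 -0.091 to 0.23, Sav1 -0.077 to 0.050, Nf2 -0.089 to 0.25, Yap1 -0.11 to 0.015 and Wwtr1 -0.0016 to 0.31. For Nf2 they were -0.18 to 0.16 in TA kidney against TA lung and -0.30 to 0.037 in TA liver against TA lung, where Mob1a, with no test, ran from -0.066 to 0.72 and was at -0.27 with upper quartile scaling. The cause of these changes was not tested. Depth limits Mob1a most, with 24 to 48 reads in CCNE-TA liver and 33 to 149 in kidney.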
